A study of Rattus norvegicus with 18 samples.

Results

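Collagens, laminins and integrins were followed across 18 rat lung arrays as 53 genes, taken from 10411 genes that had a probe set with a single gene symbol. A gene was included when its symbol began with Col, a number, a and a number, with Lam, one of a, b or c and a number, or with Itga or Itgb. The 53 genes were 29 collagens, 8 laminins, 13 integrins and 3 genes, Itgb1bp1, Itgb1bp2 and Itgb3bp, that share the letters but code for proteins that bind integrins or other partners and are no chain of the families. Each gene was read from 1 probe set, the one with the highest mean of log2(signal + 25) over all arrays. Of the 53, 41 passed a filter on low signal (at least 3 arrays above a signal of 173.6, the 40th percentile of all values) and were tested: 21 collagens, 7 laminins, 11 integrins and 2 binding proteins.

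The lungs came from male Sprague-Dawley rats, 1 lung per array, hybridised to 1-colour Affymetrix rat 230A arrays. In 4 groups the rats had been anesthetized, ventilated through a tracheotomy, opened by a left thoracotomy and kept for 2 h with a clamp on the left lung hilum, which left that lung warm, in place and without blood flow. These groups were the clamped left lungs reperfused and ventilated for 30 min (n = 3) or 3 h (n = 3) and the right lungs, not clamped, taken from operated rats at 30 min (n = 3) or 3 h (n = 3). The 6 controls were normal lungs of rats sacrificed under anesthesia with no operation, and the labels do not give their side. All clamped lungs were left lungs, so the clamp and the side cannot be told apart. The arrays hold no lung taken after the clamp without reperfusion, nor after thoracotomy alone. Against control the clamp, the return of blood flow, the operation and the time under ventilation therefore cannot be told apart.

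Collagens are triple helices of 3 alpha chains. The fibrillar ones make the tensile fibres of airway, vessel and septal walls, and type IV collagen makes the network of the basement membrane on which the alveolar epithelium and the capillary endothelium sit. Laminins are trimers of an alpha, a beta and a gamma chain that form the other network of that membrane, and integrins are alpha-beta pairs in the cell membrane that bind collagens, laminins or RGD-bearing proteins outside and actin linkers inside.

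Median signal per array ran from 232.3 to 283.8 after the authors' scaling. Markers of type II cells, club cells and type I cells were high, with control means of 13800 for Sftpc, 12300 for Scgb1a1 and 7280 for Ager. The ratio of 3' to 5' beta-actin signal, a sign of RNA integrity, exceeded 2 on 3 arrays, reaching 4.81 (replicate 1) and 2.30 (replicate 3) among left 30 min lungs and 2.93 (replicate 3) among right 30 min lungs, and lay between 1.31 and 1.78 on the other 15. The mean of 7 neutrophil markers (log2 signal) exceeded the highest control on all left 3 h, right 30 min and right 3 h arrays and on 2 of 3 left 30 min arrays, with group means of 9.51, 9.09, 9.54 and 9.07 against 8.27 in control. In the limma fit used below, 3 of the 7 were called higher in each operated group and 1 lower in all but right 3 h lungs. Mean signal of Cxcr1 was 216 in control and 110 in left 30 min lungs. Lcn2 was also below its control mean of 1550 at 30 min, at 1230 in left and 1140 in right lungs. By exact permutation test over the arrays, two-sided, the smallest p that 3 arrays against 6 can give is 0.0238, and after adjustment over the 60 such tests of 15 array measures the smallest was 0.0794.

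Of the 53 genes, 42 had an entry in the RefSeq promoter table (build GRCr8), and the bases before the start are shown for the 5 members of the basement membrane called higher in at least 1 operated group, Col4a1, Col7a1, Lama2, Lama5 and Lamc1. Col4a1 and Col4a2, the second of which was called in no group, code for the chains of the main type IV collagen and start back to back, and the first sequence is all of the space between their starts, chr16:84885521-84885596 on the plus strand. The others are the 250 bases before the starts of Col7a1 (chr8:118483114-118483363, plus strand), Lama2 (chr1:19491896-19492145, plus strand), Lama5 (chr3:187695975-187696224, minus strand) and Lamc1 (chr13:68051987-68052236, minus strand), 5′ to 3′, and capitals mark the GC box GGGCGG and the letters CCAAT on either strand.
Col4a1-Col4a2: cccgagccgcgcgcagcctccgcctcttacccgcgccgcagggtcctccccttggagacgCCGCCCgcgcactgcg
Col7a1: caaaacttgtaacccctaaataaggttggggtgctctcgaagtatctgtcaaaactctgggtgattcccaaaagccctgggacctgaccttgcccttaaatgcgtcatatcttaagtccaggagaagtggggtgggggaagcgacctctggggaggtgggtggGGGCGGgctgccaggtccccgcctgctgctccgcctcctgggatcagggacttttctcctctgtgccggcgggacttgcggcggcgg
Lama2: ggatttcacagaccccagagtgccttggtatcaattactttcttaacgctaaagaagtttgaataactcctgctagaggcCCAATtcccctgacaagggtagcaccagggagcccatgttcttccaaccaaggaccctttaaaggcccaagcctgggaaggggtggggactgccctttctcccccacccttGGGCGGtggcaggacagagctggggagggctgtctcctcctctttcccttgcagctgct
Lama5: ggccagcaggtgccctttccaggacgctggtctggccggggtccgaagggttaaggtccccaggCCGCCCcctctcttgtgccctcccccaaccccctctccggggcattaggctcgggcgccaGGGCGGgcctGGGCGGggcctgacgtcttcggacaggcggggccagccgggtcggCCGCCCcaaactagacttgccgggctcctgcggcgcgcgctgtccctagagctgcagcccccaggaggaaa
Lamc1: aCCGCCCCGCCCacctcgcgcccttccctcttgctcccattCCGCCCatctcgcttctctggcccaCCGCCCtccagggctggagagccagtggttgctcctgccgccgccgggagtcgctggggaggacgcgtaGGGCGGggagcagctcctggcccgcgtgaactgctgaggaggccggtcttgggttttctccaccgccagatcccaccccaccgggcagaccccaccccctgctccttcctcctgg
The space between Col4a1 and Col4a2 is 76 bases long, 78.9% G or C, and holds 1 GC box, as do the Col7a1 stretch at 59.6% and the Lama2 stretch at 55.6%. The Lama5 stretch holds 4 at 72.8% and the Lamc1 stretch 5 at 71.2%, and CCAAT, searched on both strands, was found once, in Lama2. The longer windows of Col4a1 and Col4a2 counted next, which reach beyond the space between their starts, also hold it. Over windows of 300 bases, 250 before and 50 after the start, GGGCGG was found in 20 of 42 member promoters (47.6%) and in 33.1% of all 33469 promoters in the table. CCAAT was found in 11 (26.2% against 37.5%), TATAAA in 4 (9.5% against 14.2%) and the AP-1 letters TGANTCA in 2, Col6a1 and Lama3 (4.8% against 7.3%). Such matches are letters in a window and were not tested for binding.

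In the clamped left lungs at 30 min, chains of the basement membrane and of type VI collagen were higher than in control and 4 integrin chains were lower. The higher members were Col7a1, Col4a1, Col6a1, Col6a3, Lama2, Lama5, Lamc1 and Itga7, and the lower ones Col14a1, Col8a2, Itga1, Itga6, Itga8 and Itgb4. That is 8 higher and 6 lower of 41 by limma with Benjamini-Hochberg adjustment over all tested probe sets, at an adjusted p under 0.05. In bulk lung, fewer cells of a type and less RNA per cell cannot be told apart. Over all 7726 genes tested, 8.65% were called higher and 9.51% lower. Leaving out left 30 min replicate 1, 2 or 3 brought the count of member calls from 14 to 8, 9 and 9. Such totals also count calls that were gained. Leaving out the 3 arrays of actin ratio above 2 leaves 1 lung in this group. Lama5, Lama2 and Lamc1 then differed by 1.26, 0.65 and 0.56, and Itga6, Itga8 and Itgb4 by -0.36, -0.91 and -0.35. Col4a1, Col6a1, Col6a3 and Col8a2 differed by 0.51, 0.43, 0.37 and -0.41. A single lung holds no spread within the group, so these are sizes only. Of these genes only Lama5 and Lamc1 were still called with the actin ratio as a covariate, as given below.

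In the clamped left lungs at 3 h, 7 collagens were lower than control and 1 was higher. Col1a1, Col3a1, Col5a1, Col15a1, Col18a1, Col14a1 and Col8a2 were lower, as were the integrin chains Itga1, Itgb4 and Itgb5, while Col7a1, Lama5, Lamc1 and Itga7 were higher. The 4 higher and 10 lower of 41 stood beside 13.5% of all genes called higher and 24.1% called lower, so the share of lower members was near that of all genes. The median difference of all tested genes was itself -0.13 in this comparison, against -0.06, -0.04 and -0.05 in the left 30 min, right 30 min and right 3 h comparisons. Without left 3 h replicate 1 the 14 calls became 9, and with every array centred on its median they were 6 higher and 5 lower.

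The right lungs, never clamped, also differed from control. At 30 min Col7a1, Col6a1, Lama2, Lama5, Lamc1 and Itga7 were higher and Itga1 and Itga8 lower, 6 and 2 of 41 against 5.93% and 6.30% of all genes. At 3 h Lama5 and Itga7 were higher and Col1a1, Col14a1, Col8a2, Itga1 and Itgb4 lower, 2 and 5 of 41 against 7.75% and 12.6%. The lower count at 30 min and both counts at 3 h were near the shares of all genes or below them. The 8 calls at 30 min became 4 without right 30 min replicate 1 and 5 without replicate 2, and the 7 calls at 3 h became 4 without control replicate 3 or control replicate 4. All 4 comparisons use the same 6 controls, so their values are set side by side below and are not independent of each other.

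Centring each array on its median moved the share of higher genes among all calls from 47.6% to 66.5% for left 30 min, from 35.9% to 61.2% for left 3 h, from 48.5% to 60.6% for right 30 min and from 38.1% to 56.8% for right 3 h. Members called were then 9 higher and 4 lower, 6 and 5, 6 and 2, and 3 and 4 in that order. This centring ended the left 3 h calls of Col15a1 (-0.39), Col18a1 (-0.24), Col3a1 (-0.08), Col5a1 (-0.47) and Itgb5 (-0.26), with adjusted p from 0.077 to 0.56. It also ended the left 30 min calls of Itga8 and Itgb4 (0.052 and 0.069) and the right 3 h call of Col14a1 (0.12). Quantile normalization ended the left 30 min calls of Col4a1, Col6a1, Col6a3, Itga8 and Itgb4 (0.054 to 0.076), the left 3 h calls of Col18a1, Lama5 and Lamc1 (0.051 to 0.21) and the right 3 h call of Col14a1 (0.098). With the actin ratio as a covariate Col4a1, Col6a1, Col6a3, Col8a2, Itga6, Itga8, Itgb4 and Lama2 were no longer called in left 30 min lungs (0.059 to 0.29). Their differences there were 0.61, 0.41, 0.41, -0.63, -0.48, -0.55, -0.41 and 0.48 in that order, so those of Col4a1, Col6a1 and Col8a2 were as large as without the covariate. Col18a1 in left 3 h lungs (-0.38, 0.06) and Itga8 and Lamc1 in right 30 min lungs (-0.81 and 0.50, 0.061 and 0.053) were not called with it either.

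**Figure D1:**
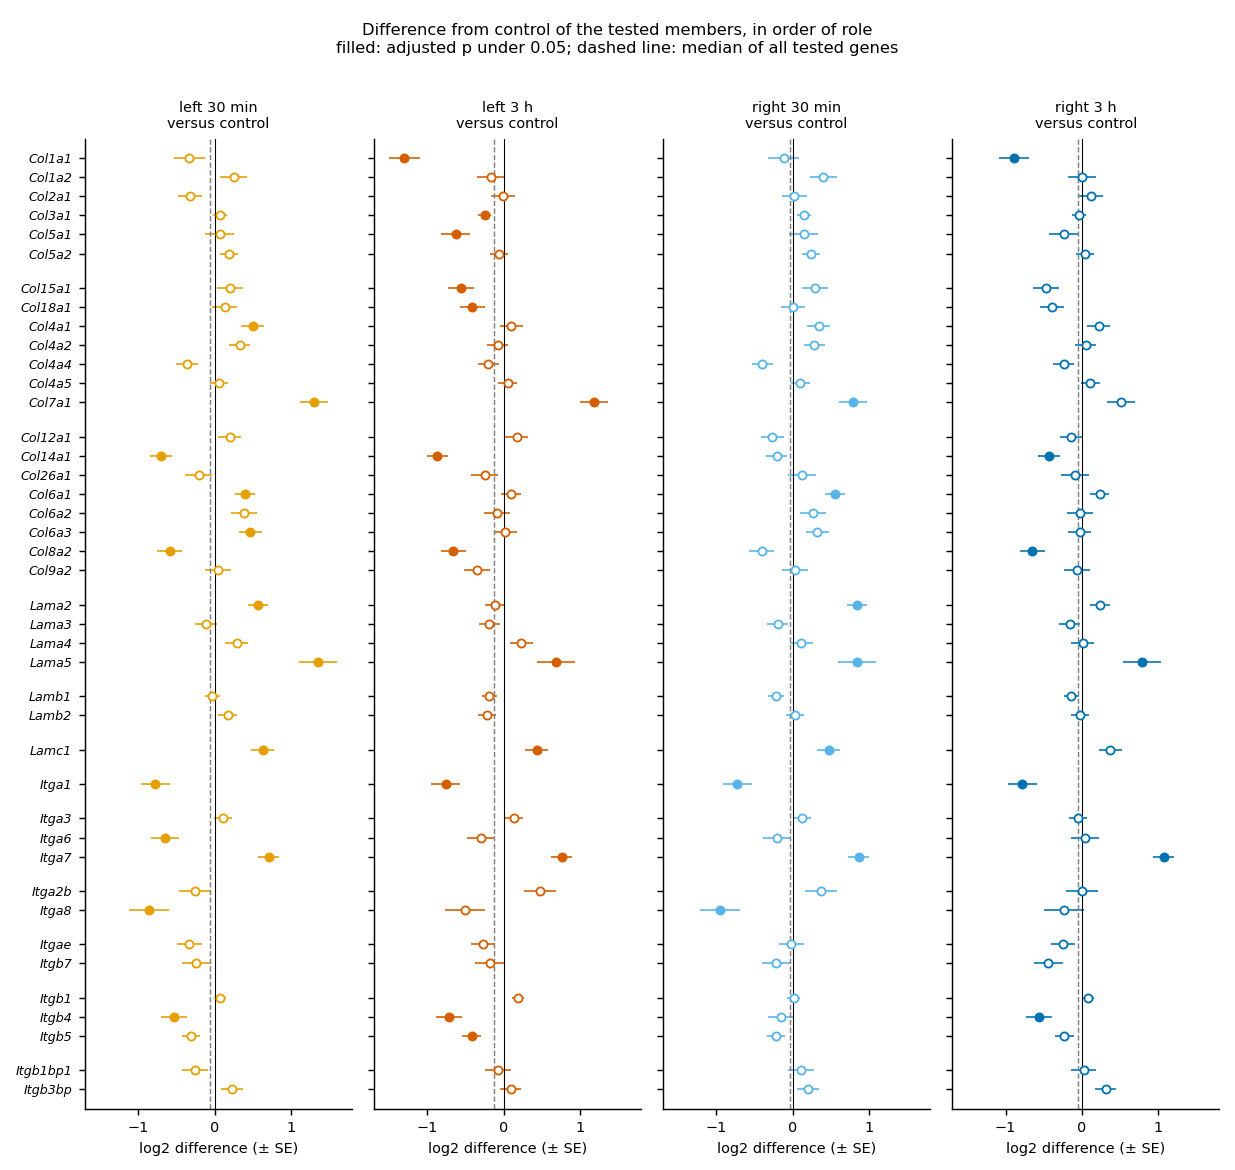
Log2 differences from control (limma, ± SE) of the 41 tested genes, 1 panel for each operated group and genes in order of role, with filled points for an adjusted p under 0.05 and a dashed line at the median of all tested genes. Lama5 at 1.35 and Col7a1 at 1.30 lie furthest right in left lungs at 30 min, and Col1a1 lies furthest left, at -1.30, in left lungs at 3 h.

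Among the basement membrane collagens, Col7a1, whose product forms the anchoring fibrils under epithelia, had the largest positive difference. Col7a1 signal ran from 97.5 to 179 in the 6 controls (median 125). In left lungs Col7a1 was 330, 365 and 350 after 30 min of reperfusion and 395, 241 and 335 after 3 h. For Col7a1 the right lungs gave 286, 186 and 250 after 30 min and then, after 3 h, 176, 150 and 256. Every left-lung array and every right 30 min array was above every control, and 2 of the 3 right 3 h arrays lay within the control range. The differences from control on the log2(signal + 25) scale, which understates changes at low signal, were 1.30 ± 0.18 (adjusted p = 1.3e-04) in left lungs at 30 min, 1.18 ± 0.18 (adjusted p = 1.4e-04) at 3 h, 0.79 ± 0.18 (adjusted p = 0.0088) in right lungs at 30 min and 0.51 ± 0.18 (adjusted p = 0.056) at 3 h. Only 1 of the 6 controls was above the filter signal, against 11 of the 12 operated lungs, so Col7a1 was tested because of the lungs in which it was high. With no filter the left-lung differences had adjusted p of 3.2e-04 and 3.1e-04. The right 30 min call was lost without right 30 min replicate 1 (adjusted p = 0.058).

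Col4a1 codes for the alpha 1 chain of type IV collagen, the network former of the basement membrane. Left-lung signals of Col4a1 were 5100, 5100 and 4980 after 30 min and 3620, 3590 and 4360 after 3 h. Controls of Col4a1 spanned 2850 to 4170 (median 3720). In Col4a1 the right-lung arrays read 4910, 4690 and 4010 after 30 min and 4360, 3050 and 5430 after 3 h. All 3 left 30 min arrays were above every control, and the other groups overlapped the controls. It was higher in the left lungs at 30 min by 0.50 ± 0.15 (adjusted p = 0.03) and gave 0.10 ± 0.15, 0.34 ± 0.15 and 0.22 ± 0.15 in left 3 h, right 30 min and right 3 h lungs, none of which passed. The call was lost without control replicate 3, control replicate 4 or any of the 3 left 30 min arrays (adjusted p from 0.056 to 0.089). Its neighbour Col4a2, which codes for the alpha 2 chain of the same trimer, gave 0.33 ± 0.14 (adjusted p = 0.095) at 30 min in the left lungs and did not pass.

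Col15a1 and Col18a1 code for the core chains of 2 collagens that carry sugar chains and lie at the outer face of basement membranes, the second of which holds the fragment endostatin. For Col15a1, controls lay between 892 and 1500 (median 1070). Col15a1 in left lungs stood at 1160, 1280 and 1380 after 30 min and 881, 583 and 791 after 3 h. Right-lung Col15a1 was 1160, 1300 and 1660 after 30 min and 642, 748 and 1010 after 3 h. Every left 3 h array was below every control, and the right 3 h arrays overlapped the controls only through replicate 3. Col15a1 was lower in the left lungs at 3 h (-0.56 ± 0.17, adjusted p = 0.017), a call lost without left 3 h replicate 2 (adjusted p = 0.13). It gave -0.47 ± 0.17 (adjusted p = 0.059) in the right lungs at 3 h. Col18a1 signal ran from 367 to 521 in the 6 controls (median 434). In left lungs Col18a1 was 502, 532 and 421 after 30 min of reperfusion and 259, 388 and 341 after 3 h. For Col18a1 the right lungs gave 443, 557 and 339 after 30 min and then, after 3 h, 351, 275 and 367. Of the left 3 h arrays, 2 were below every control. Its difference there was -0.41 ± 0.16 (adjusted p = 0.049), close to the threshold, and in the right lungs at 3 h it was -0.39 ± 0.16 (adjusted p = 0.084). The Col18a1 call was lost in 12 of the 18 fits that left out 1 array (control replicates 1 to 5, left 3 h replicates 1 and 3, each left 30 min array, right 3 h replicate 1 and right 30 min replicate 1), with adjusted p from 0.051 to 0.3.

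Of the fibrillar collagens, 3 of 6 tested were lower in the left lungs at 3 h and 1 in the right lungs at 3 h, while none passed by limma at 30 min (0 in left and 1 in right lungs at an unadjusted p under 0.05). Of all genes 24.1% were lower in left and 12.6% in right lungs at 3 h, so the right-lung count was near the share of all genes. Col1a1, the alpha 1 chain of type I collagen and so of the main tensile fibre, had the most negative difference of the 41 tested members in either lung at 3 h. Left-lung signals of Col1a1 were 2360, 3140 and 2420 after 30 min and 1080, 1180 and 1810 after 3 h. Controls of Col1a1 spanned 2540 to 3910 (median 3310). In Col1a1 the right-lung arrays read 3030, 3250 and 2810 after 30 min and 2030, 1140 and 2370 after 3 h. All 3 arrays of each lung at 3 h were below every control, whereas each 30 min group held at least 1 array within the control range. The differences were -1.30 ± 0.20 (adjusted p = 1.6e-04) in left and -0.89 ± 0.20 (adjusted p = 0.0058) in right lungs at 3 h, against -0.33 ± 0.20 (adjusted p = 0.28) and -0.12 ± 0.20 (adjusted p = 0.76) at 30 min, and the left 3 h call held in all 30 alternatives. The other Col1a1 probe set, given below, was above every control in left and right lungs at 30 min. The mean log2 signal of 7 fibroblast markers was 10.0 (9.85 to 10.1) in left 3 h and 10.1 (9.94 to 10.3) in right 3 h lungs against 10.1 (9.99 to 10.1) in control, and its part in the Col1a1 difference was not tested.

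The partner chain of type I collagen and the other fibrillar chains differed by less. Col1a2, which codes for the alpha 2 chain, gave -0.17 ± 0.18 (adjusted p = 0.47) in left lungs at 3 h by its chosen probe set. For Col3a1, controls lay between 6570 and 7730 (median 7230). Col3a1 in left lungs stood at 8690, 6880 and 7080 after 30 min and 5810, 5930 and 6330 after 3 h. Right-lung Col3a1 was 7970, 7950 and 7890 after 30 min and 6720, 7090 and 7030 after 3 h. Col3a1, of the thin reticular fibres, was below every control in all 3 left 3 h arrays, and the difference was -0.25 ± 0.09 (adjusted p = 0.048). Col5a1 signal ran from 617 to 867 in the 6 controls (median 811). In left lungs Col5a1 was 900, 713 and 817 after 30 min of reperfusion and 473, 567 and 428 after 3 h. For Col5a1 the right lungs gave 720, 1070 and 797 after 30 min and then, after 3 h, 586, 463 and 986. Col5a1, of the collagen that starts type I fibrils and limits their width, was also below every control in all 3 left 3 h arrays, with a difference of -0.63 ± 0.19 (adjusted p = 0.014). The Col3a1 call was lost in 12 of 18 fits that left out 1 array (control replicates 1, 2, 5 and 6, each left 3 h array, left 30 min replicate 3, right 3 h replicate 1 and each right 30 min array), with adjusted p from 0.05 to 0.16, and with arrays centred on the median (-0.08, adjusted p = 0.56). The Col5a1 call was lost without left 3 h replicate 1 or 3 (adjusted p = 0.058 in both) and with median centring (-0.47, adjusted p = 0.077).

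Type VI collagen forms beaded filaments that tie cells and basement membranes to the fibres between them. Left-lung signals of Col6a1 were 3260, 3300 and 3110 after 30 min and 2160, 2570 and 3150 after 3 h. Controls of Col6a1 spanned 2150 to 2780 (median 2430). In Col6a1 the right-lung arrays read 3650, 3400 and 3710 after 30 min and 2960, 2280 and 3490 after 3 h. Each 30 min array of either lung was above every control in Col6a1, and both 3 h groups overlapped the controls. The Col6a1 differences were 0.40 ± 0.13 (adjusted p = 0.04) in left and 0.55 ± 0.13 (adjusted p = 0.011) in right lungs at 30 min, and 0.09 ± 0.13 and 0.23 ± 0.13 at 3 h, where neither passed. For Col6a3, controls lay between 3370 and 4440 (median 3850). Col6a3 in left lungs stood at 5830, 5030 and 5350 after 30 min and 3980, 3220 and 4720 after 3 h. Right-lung Col6a3 was 4750, 4930 and 4880 after 30 min and 3480, 3070 and 5180 after 3 h. All left and right 30 min arrays were above every control in Col6a3 too, and its difference passed in the left lungs, at 0.47 ± 0.15 (adjusted p = 0.032), but not in the right, at 0.32 ± 0.15 (adjusted p = 0.16). Col6a2, the remaining chain measured, gave 0.38 ± 0.17 (adjusted p = 0.13) in left lungs at 30 min. The left 30 min call of Col6a1 was lost without control replicate 1, 3, 4, 5 or 6 or any left 30 min array (adjusted p from 0.056 to 0.11), and that of Col6a3 without control replicate 3, 4 or 6 or any left 30 min array (0.054 to 0.13).

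Other collagens that were lower included Col14a1, a chain that decorates the surface of fibrils, and Col8a2, a short chain of network-forming type VIII collagen found in vessel walls. Col14a1 signal ran from 473 to 719 in the 6 controls (median 510). In left lungs Col14a1 was 329, 310 and 364 after 30 min of reperfusion and 310, 320 and 259 after 3 h. For Col14a1 the right lungs gave 499, 560 and 394 after 30 min and then, after 3 h, 382, 411 and 431. All left-lung and all right 3 h arrays were below every control in Col14a1, while right 30 min lungs overlapped them. Its differences were -0.70 ± 0.14 (adjusted p = 0.0023), -0.87 ± 0.14 (adjusted p = 2.2e-04), -0.21 ± 0.14 (adjusted p = 0.35) and -0.43 ± 0.14 (adjusted p = 0.037) in left 30 min, left 3 h, right 30 min and right 3 h lungs. Left-lung signals of Col8a2 were 153, 186 and 147 after 30 min and 138, 133 and 189 after 3 h. Controls of Col8a2 spanned 215 to 291 (median 253). In Col8a2 the right-lung arrays read 134, 233 and 204 after 30 min and 137, 192 and 138 after 3 h. In Col8a2 only right 30 min replicate 2 reached the control range. The Col8a2 differences were -0.59 ± 0.16 (adjusted p = 0.013), -0.66 ± 0.16 (adjusted p = 0.0033), -0.41 ± 0.16 (adjusted p = 0.094) and -0.65 ± 0.16 (adjusted p = 0.0074) in the same order. The right 3 h call of Col14a1 was lost without control replicate 3 or 4 or any right 3 h array (adjusted p from 0.068 to 0.12), and the left 30 min call of Col8a2 without left 30 min replicate 1 or 3 (0.058 and 0.061).

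The 10 tested collagens that passed in no comparison were Col1a2, Col2a1, Col5a2, Col4a2, Col4a4, Col4a5, Col6a2, Col9a2, Col12a1 and Col26a1. Their differences from control ran from -0.36 to 0.38 in left lungs at 30 min and from -0.35 to 0.17 at 3 h.

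**Figure D2:**
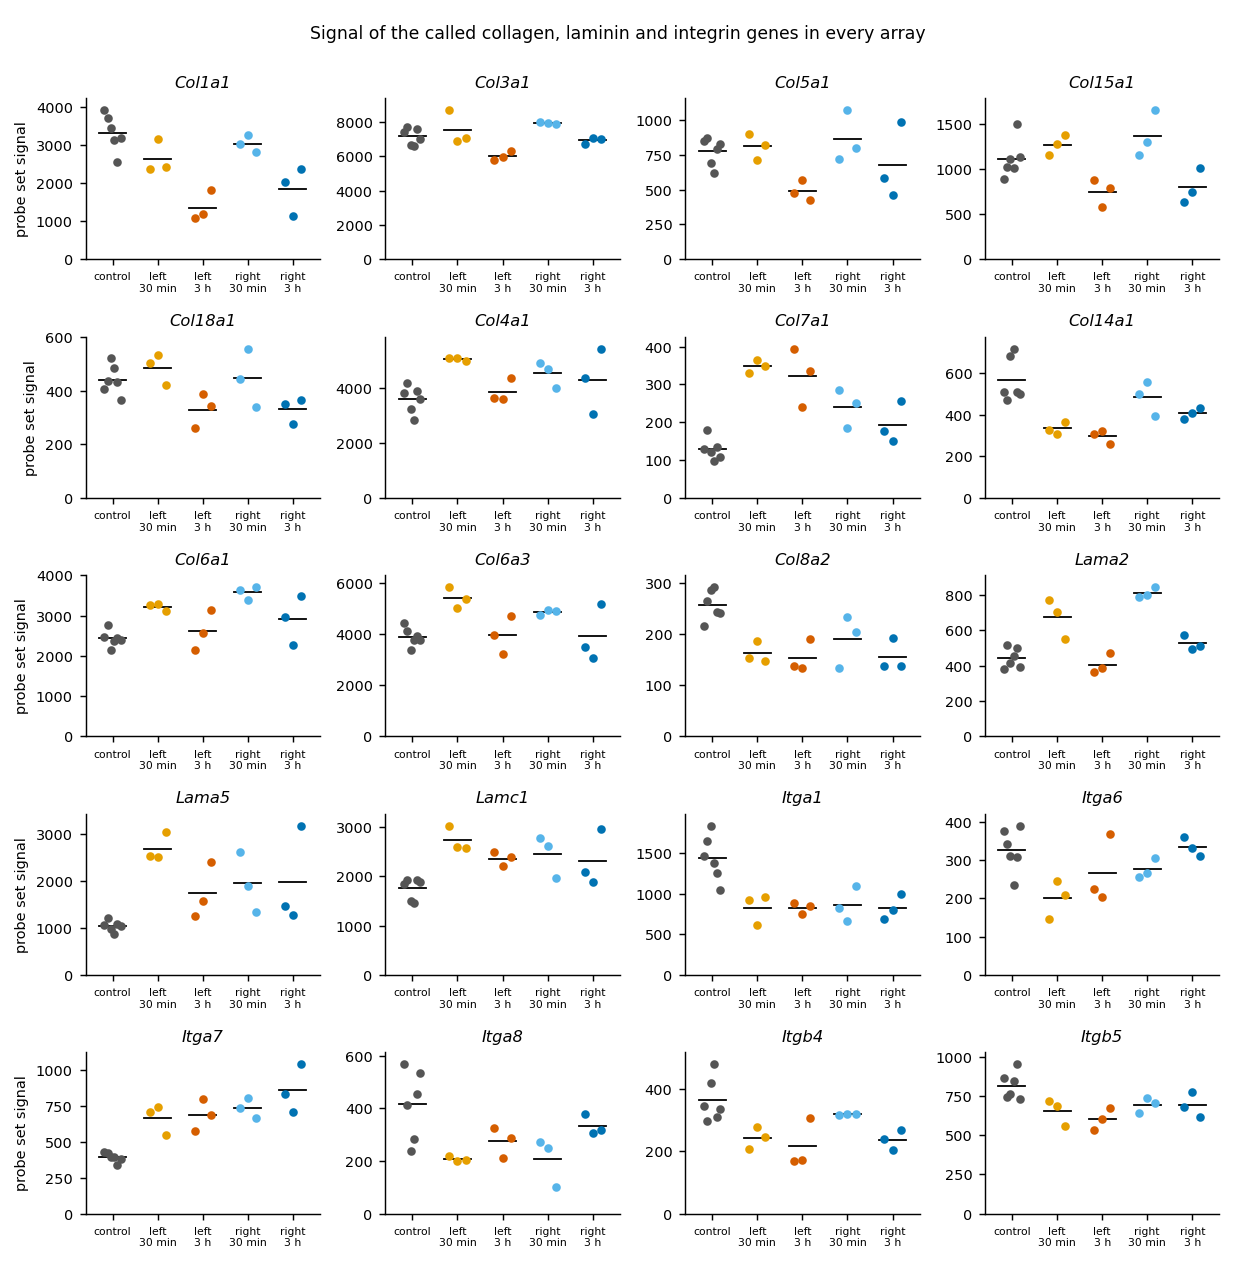
Signal (linear scale, from 0) of the 20 members called in at least 1 comparison, 1 point per array and a bar at the mean of each of the 5 groups. Lama5 and Itga7 lie above the controls in all 12 operated lungs, Col7a1 in 10 of 12, Itga1 lies below them in 11 of 12, and Col1a1 and Col15a1 are low in the 3 h groups.

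Among the laminins, 3 of 7 tested members were higher in left lungs at 30 min, 2 in left lungs at 3 h, 3 in right lungs at 30 min and 1 in right lungs at 3 h. The shares of all genes called higher were 8.65%, 13.5%, 5.93% and 7.75%, and the count in right lungs at 3 h was near that share. None was called lower by limma (1 was lower at an unadjusted p under 0.05, Lamb1, in right lungs at 30 min). Lama5, the alpha chain of laminins in alveolar and vessel basement membranes, had the largest difference of the 3. For Lama5, controls lay between 882 and 1220 (median 1050). Lama5 in left lungs stood at 2530, 2510 and 3040 after 30 min and 1250, 1580 and 2400 after 3 h. Right-lung Lama5 was 2620, 1890 and 1340 after 30 min and 1460, 1270 and 3180 after 3 h. All 12 operated lungs were above every control. The differences were 1.35 ± 0.25 (adjusted p = 0.0015), 0.68 ± 0.25 (adjusted p = 0.043), 0.84 ± 0.25 (adjusted p = 0.036) and 0.79 ± 0.25 (adjusted p = 0.035) in left 30 min, left 3 h, right 30 min and right 3 h lungs. At 3 h in the right lungs replicate 3 stood at 3180 and the others at 1460 and 1270, and without that replicate the call was lost (0.38, adjusted p = 0.27).

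The Lama5 call of the left lungs at 30 min was kept without any 1 array and lost without the 3 arrays of actin ratio above 2 (1.26, adjusted p = 0.071). The other 3 calls were also lost with no filter (adjusted p = 0.065 in left 3 h, 0.058 in right 30 min and 0.055 in right 3 h lungs). The left 3 h call was lost without control replicate 1, 3, 4, 5 or 6, left 3 h replicate 2 or 3 or right 30 min replicate 2 (adjusted p from 0.051 to 0.23). The right 30 min call was lost without the same 5 controls or right 30 min replicate 1 or 2 (0.051 to 0.2), and the right 3 h call without control replicate 1, 3, 4 or 6 as well as replicate 3 of its own group (0.052 to 0.27).

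Lamc1 codes for the gamma 1 chain, which is shared by most laminin trimers. Lamc1 signal ran from 1460 to 1920 in the 6 controls (median 1860). In left lungs Lamc1 was 3020, 2580 and 2570 after 30 min of reperfusion and 2480, 2200 and 2380 after 3 h. For Lamc1 the right lungs gave 2770, 2610 and 1970 after 30 min and then, after 3 h, 2080, 1880 and 2960. All operated arrays except right 3 h replicate 2 were above every control. The differences were 0.63 ± 0.15 (adjusted p = 0.0066), 0.43 ± 0.15 (adjusted p = 0.032), 0.47 ± 0.15 (adjusted p = 0.044) and 0.37 ± 0.15 (adjusted p = 0.083), in that same order of groups. The left 3 h call was lost without control replicate 3 or 4 or any left 3 h array (adjusted p from 0.05 to 0.12). The right 30 min call was lost without control replicate 1, 3, 4 or 6, left 3 h replicate 2, left 30 min replicate 2 or 3 or right 30 min replicate 1 or 2 (0.051 to 0.19).

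Lama2, the alpha chain of the laminin around muscle and some vessel cells, passed in both lungs at 30 min and in neither at 3 h. Left-lung signals of Lama2 were 773, 705 and 548 after 30 min and 362, 385 and 472 after 3 h. Controls of Lama2 spanned 380 to 518 (median 436). In Lama2 the right-lung arrays read 789, 800 and 844 after 30 min and 572, 497 and 512 after 3 h. All 30 min arrays of both lungs were above every control, and each 3 h group held 2 arrays within the control range. It was higher by 0.57 ± 0.13 (adjusted p = 0.0044) in left and 0.84 ± 0.13 (adjusted p = 3.4e-04) in right lungs at 30 min, and gave -0.12 ± 0.13 (adjusted p = 0.47) and 0.24 ± 0.13 (adjusted p = 0.18) at 3 h. Both calls held in each of the 18 fits that left out 1 array, and the left one was lost with the actin ratio as a covariate (0.48, adjusted p = 0.066) and without the 3 arrays of actin ratio above 2 (0.65, adjusted p = 0.051). The mean log2 signal of 6 smooth muscle markers was 10.2 (9.95 to 10.4) in left 30 min and 10.3 (9.93 to 10.5) in right 30 min lungs against 10.2 (9.82 to 10.3) in control, and its part in the Lama2 difference was not tested. The remaining tested laminins, Lama3, Lama4, Lamb1 and Lamb2, ran from -0.11 to 0.29 in left lungs at 30 min and from -0.22 to 0.23 at 3 h, and none of the 4 passed in any comparison by limma, with Lama4 at 0.29 ± 0.15 (adjusted p = 0.19) in left lungs at 30 min.

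Of 11 integrin chains tested, 4 were called lower and 1 higher in left 30 min, 3 and 1 in left 3 h, 2 and 1 in right 30 min and 2 and 1 in right 3 h lungs. Over all genes 9.51%, 24.1%, 6.30% and 12.6% were lower in these comparisons and 8.65%, 13.5%, 5.93% and 7.75% higher, so lower calls outnumbered higher ones there too. The lower counts at 3 h were near the share of all genes. The 1 higher chain was Itga7 each time. It codes for the alpha 7 chain, a laminin receptor with beta 1 that is best known on muscle. For Itga7, controls lay between 338 and 430 (median 395). Itga7 in left lungs stood at 706, 741 and 547 after 30 min and 575, 800 and 683 after 3 h. Right-lung Itga7 was 738, 805 and 668 after 30 min and 834, 707 and 1040 after 3 h. All 12 operated lungs were above every control. Its differences were 0.71 ± 0.14 (adjusted p = 0.0016), 0.76 ± 0.14 (adjusted p = 5.0e-04), 0.86 ± 0.14 (adjusted p = 4.9e-04) and 1.07 ± 0.14 (adjusted p = 4.5e-05) in left 30 min, left 3 h, right 30 min and right 3 h lungs, and each of the 4 calls held in all 30 alternatives. These alternatives include another probe set that passed the filter only through the operated lungs.

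Heart muscle genes, which rat lungs carry in the walls of pulmonary veins, varied between the groups and are given beside Itga7. The mean log2 signal of 11 cardiac markers was 6.90 (5.70 to 7.77) in control, 6.33 (5.71 to 7.29) in left 30 min, 5.83 (5.69 to 5.93) in left 3 h, 7.13 (6.02 to 7.99) in right 30 min and 8.04 (7.16 to 8.90) in right 3 h lungs. Mean signal of Myl7, an atrial myosin light chain, was 56.7 in left 3 h lungs against 678 in control and 2110 in right 3 h lungs. Itga7 was higher than control by 0.76 ± 0.14 in the left lungs at 3 h, where the cardiac markers were lowest. In the right 3 h lungs cardiac markers and Itga7 were both at their highest. The part of the cardiac markers in the Itga7 differences was not tested in either lung.

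Itga1, the alpha chain of a collagen IV and collagen I receptor, was lower in every operated group. Itga1 signal ran from 1050 to 1840 in the 6 controls (median 1420). In left lungs Itga1 was 923, 610 and 961 after 30 min of reperfusion and 886, 754 and 852 after 3 h. For Itga1 the right lungs gave 828, 663 and 1100 after 30 min and then, after 3 h, 684, 806 and 992. Of the 12 operated lungs, 11 were below every control, the exception being right 30 min replicate 3. The differences were -0.78 ± 0.19 (adjusted p = 0.008), -0.76 ± 0.19 (adjusted p = 0.0051), -0.73 ± 0.19 (adjusted p = 0.017) and -0.78 ± 0.19 (adjusted p = 0.0081) in left 30 min, left 3 h, right 30 min and right 3 h lungs. The left 30 min call was lost without left 30 min replicate 2 (-0.58, adjusted p = 0.067) and the right 30 min call without right 30 min replicate 1 or 2 (adjusted p from 0.061 to 0.1).

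Itga6 and Itgb4 code for the alpha 6 and beta 4 chains that together bind laminin in the hemidesmosomes of epithelia. Left-lung signals of Itgb4 were 209, 278 and 246 after 30 min and 170, 172 and 309 after 3 h. Controls of Itgb4 spanned 299 to 481 (median 341). In Itgb4 the right-lung arrays read 319, 321 and 321 after 30 min and 240, 204 and 269 after 3 h. All left 30 min and right 3 h arrays and 2 of 3 left 3 h arrays were below every control, and all right 30 min arrays lay within the controls. Itgb4 differed by -0.53 ± 0.17 (adjusted p = 0.039), -0.72 ± 0.17 (adjusted p = 0.0036), -0.16 ± 0.17 (adjusted p = 0.58) and -0.56 ± 0.17 (adjusted p = 0.027) in left 30 min, left 3 h, right 30 min and right 3 h lungs. For Itga6, controls lay between 236 and 390 (median 326). Itga6 in left lungs stood at 147, 245 and 209 after 30 min and 225, 205 and 367 after 3 h. Right-lung Itga6 was 255, 267 and 306 after 30 min and 360, 332 and 310 after 3 h. In the left lungs at 30 min 2 Itga6 arrays were below every control, and the difference of -0.65 ± 0.18 (adjusted p = 0.016) was the only one to pass for that gene. It was lost without left 30 min replicate 1 (-0.47, adjusted p = 0.12), the array of actin ratio 4.81. The left 30 min call of Itgb4 was lost without control replicate 1, 3, 4 or 6 or left 30 min replicate 1 or 3 (adjusted p from 0.051 to 0.17), and its right 3 h call without control replicate 3 or 4 or right 3 h replicate 1 or 2 (0.052 to 0.12).

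Epithelial markers also differed in these lungs. The mean log2 signal of 7 type I cell markers was 11.6, 11.7, 11.4 and 11.7 in left 30 min, left 3 h, right 30 min and right 3 h lungs against 11.9 in control, with 3, 2, 3 and 2 of 3 arrays below every control. The remaining left 3 h array was above every control. For 7 type II cell markers the mean was 12.6, 12.3, 12.6 and 12.8 against 12.8 (2, 3, 3 and 1 arrays below every control, and 1 right 3 h array above every control). For 3 club cell markers it was 11.8, 11.6, 11.7 and 11.9 against 12 (1, 3, 2 and 1 arrays below). Of the 7 type I markers, 1, 0, 5 and 1 were called lower by limma in the same order of groups. In right 3 h lungs 1 was called higher. The type I genes did not move alike. In left 30 min lungs mean signal of Akap5 was 136 against 580 in control. Pdpn and Hopx were higher there, at 5310 against 5100 and 8230 against 7090. Neither Itga6 nor Itgb4 passed in right 30 min lungs, which with 3 arrays does not show that they were unchanged there. The part of these epithelial markers in the Itga6 and Itgb4 differences was not tested.

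Itga8, an RGD-binding chain of mesenchymal cells, was lower at 30 min. Itga8 signal ran from 239 to 568 in the 6 controls (median 433). In left lungs Itga8 was 219, 200 and 203 after 30 min of reperfusion and 325, 213 and 289 after 3 h. For Itga8 the right lungs gave 271, 251 and 102 after 30 min and then, after 3 h, 379, 306 and 319. All left 30 min arrays were below every control, as was right 30 min replicate 3, at 102, and the 3 h groups overlapped the controls. Its differences were -0.86 ± 0.26 (adjusted p = 0.029) in left and -0.95 ± 0.26 (adjusted p = 0.024) in right lungs at 30 min. Without right 30 min replicate 3, an array of actin ratio 2.93, the right-lung difference was -0.56 (adjusted p = 0.15), and the left-lung call was lost without control replicate 1 or 6 or any left 30 min array (adjusted p from 0.058 to 0.087). The mean log2 signal of 7 fibroblast markers was 9.90 in left 30 min lungs, below every control in all 3, and 9.94 in right 30 min lungs, below every control in 1 of 3, against 10.1 in control. By limma 1 of the 6 tested fibroblast markers was called lower and 0 higher in left 30 min lungs, and 0 either way in right 30 min lungs. These genes did not move alike. In left 30 min lungs mean signal of Dcn was 595 against 1090 in control, and of Mfap5 1050 against 1290. Lum and Tcf21 were higher there, at 505 against 459 and 1790 against 1630. The part of the fibroblast markers in the Itga8 differences was not tested.

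Left-lung signals of Itgb5 were 721, 691 and 558 after 30 min and 533, 607 and 674 after 3 h. Controls of Itgb5 spanned 731 to 956 (median 806). In Itgb5 the right-lung arrays read 643, 738 and 710 after 30 min and 685, 779 and 616 after 3 h. Itgb5, the beta chain that pairs with alpha v to bind vitronectin, was below every control in all left 3 h arrays, with a difference of -0.42 ± 0.12 (adjusted p = 0.0099), a call lost without left 3 h replicate 1 (-0.34, adjusted p = 0.077).

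The shared beta 1 chain and the leukocyte chains did not pass. Itgb1, the partner of most alpha chains named above, gave 0.07 ± 0.08 (adjusted p = 0.56), 0.19 ± 0.08 (adjusted p = 0.085), 0.01 ± 0.08 (adjusted p = 0.93) and 0.08 ± 0.08 (adjusted p = 0.54) in left 30 min, left 3 h, right 30 min and right 3 h lungs. Itgae and Itgb7, which pair on lymphocytes of epithelia, gave -0.27 ± 0.16 and -0.18 ± 0.19 in left lungs at 3 h. In right lungs at 3 h they gave -0.25 ± 0.16 and -0.44 ± 0.19. The mean log2 signal of 8 lymphocyte markers at 3 h was 7.32 in left and 7.10 in right lungs against 7.91 in control. By limma 1 of 7 tested was called higher and 4 lower in left lungs at 3 h, and 0 and 4 in right lungs. Mean signal of Il7r was higher than its control value of 89.2, at 268 in left and 148 in right lungs. The part of these markers in the Itgae and Itgb7 differences was not tested. Itga2b, the platelet chain that pairs with beta 3 to bind fibrinogen, gave 0.48 ± 0.21 (adjusted p = 0.081) in left lungs at 3 h, where 1 of 4 platelet markers, Selp, which endothelium also expresses, was called higher. Mean signal there against control was 965 against 78.7 for Selp, 2290 against 1820 for Pf4 and 158 against 151 for Ppbp, and Itga2b itself is the remaining marker. Itgam, the neutrophil and macrophage chain of complement receptor 3, was not tested, since its signal of 7.38 to 158 over the 18 arrays never reached the filter.

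The 12 members that were not tested were Col10a1, Col11a1, Col11a2, Col19a1, Col27a1, Col5a3, Col8a1, Col9a1, Itgad, Itgam, Itgb1bp2 and Lama1. Apart from Col8a1, up to 201, and Col10a1, up to 193, none exceeded 158 on any array. Fitted without the filter, Col8a1, the partner of Col8a2, gave -1.11 ± 0.22 (adjusted p = 0.0018) in left and -1.42 ± 0.22 (adjusted p = 5.9e-04) in right lungs at 3 h. Other untested genes with an adjusted p under 0.05 in that fit were Col5a3 (0.36 ± 0.11 in left 30 min), Col27a1 (-1.17 ± 0.37 in right 3 h) and Itgad (-1.0 ± 0.22 in right 3 h lungs), all at low signal.

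The medians of the 3 families lay furthest apart in left lungs at 30 min. Median log2 differences from control in left lungs at 30 min were 0.13 for collagens, 0.29 for laminins and -0.31 for integrins, against -0.06 for all genes. In left lungs at 3 h they were -0.17, -0.12 and -0.27 against -0.13, and with arrays centred on their medians the collagen and laminin values were -0.01 and 0.04. Right lungs gave 0.14, 0.11 and -0.16 at 30 min against -0.04 for all genes, and -0.04, 0.01 and -0.23 at 3 h against -0.05. These medians are descriptions of the members that passed the filter and were not tested.

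**Figure D3:**
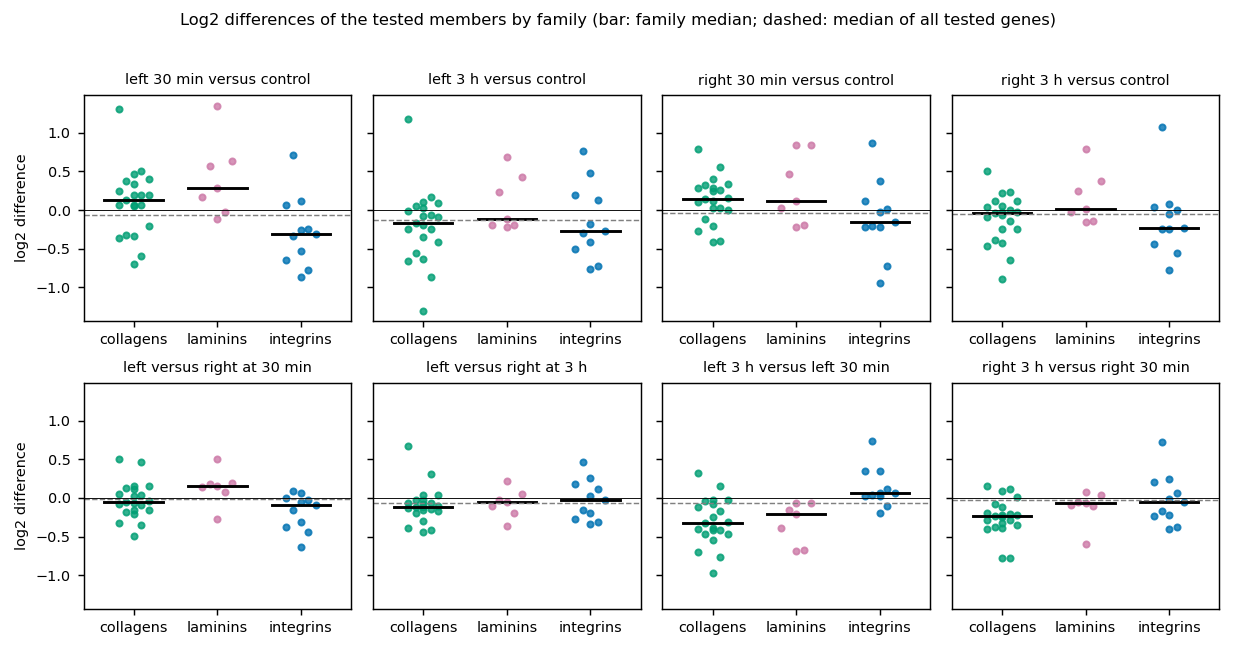
Log2 differences of the tested members, 1 point per gene, by family (21 collagens, 7 laminins and 11 integrins) in 8 comparisons, with a bar at the family median and a dashed line at the median of all tested genes. Integrins centre on -0.31 and collagens on 0.13 in left lungs at 30 min, and collagens centre on -0.32 between 30 min and 3 h in the left lungs.

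Left and right lungs of the same time were then compared directly, which asks how far the clamped lung differed from the lung on the other side. No member passed by limma at either time. At 30 min 0.0129% of all genes were higher in the left lungs and 0.0388% lower, and 5 of 41 members had an unadjusted p under 0.05 (12.2%, against 8.34% of all genes). At 3 h 1.75% of all genes were higher and 0.621% lower, and 3 members had an unadjusted p under 0.05 (7.32%, against 18.1%). The smallest adjusted p at 3 h was that of Col7a1, at 0.67 ± 0.21 (adjusted p = 0.1), and Col7a1 passed without left 3 h replicate 2 (0.86, adjusted p = 0.049) or without right 3 h replicate 3 (0.87, adjusted p = 0.034). Col14a1 gave -0.49 ± 0.16 (adjusted p = 0.39) at 30 min and -0.44 ± 0.16 (adjusted p = 0.17) at 3 h, and Col1a1 gave -0.41 ± 0.24 (adjusted p = 0.38) at 3 h. For Itga7 and Itga1 the left-right differences at 3 h were -0.31 ± 0.16 and 0.02 ± 0.22. The median SE of a member's left-right difference was 0.18, so differences of the size of most values here were not detectable with 3 lungs a side, and the lack of calls does not show that the lungs were alike.

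Between 30 min and 3 h in the left lungs, 3 members fell and 0 rose, against 1.84% and 1.23% of all genes. They were Lama2 at -0.69 ± 0.15 (adjusted p = 0.021), Col1a1 at -0.97 ± 0.24 (adjusted p = 0.035) and Col15a1 at -0.76 ± 0.20 (adjusted p = 0.046). In all 3 genes every left 3 h array was below every left 30 min array, as the signals above show. Collagens as a family had a median of -0.32, laminins of -0.21 and integrins of 0.06, against -0.06 for all genes, and 12 of the 13 members with an unadjusted p under 0.05 were negative. The calls were few and rested on single arrays. Without left 3 h replicate 1, left 3 h replicate 2 or left 30 min replicate 1 the count was 0, without left 30 min replicate 2 or 3 it was 1, and without the 3 arrays of actin ratio above 2, which leaves 1 left 30 min lung, it was 0.

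The right lungs gave 0 calls over the same interval by limma, against 0.0129% of all genes higher and 0.181% lower, with 5 of 41 members at an unadjusted p under 0.05. The same 3 genes gave -0.60 ± 0.15 (adjusted p = 0.11), -0.77 ± 0.24 (adjusted p = 0.18) and -0.77 ± 0.20 (adjusted p = 0.13) there for Lama2, Col1a1 and Col15a1. The test of whether the left-right difference itself changed from 30 min to 3 h called 0 members by limma (0.207% and 0.0259% of all genes; 1 of 41 members at an unadjusted p under 0.05, 2.44% against 7.07% of all genes). It gave -0.09 ± 0.21, -0.20 ± 0.33 and 0.01 ± 0.28 for Lama2, Col1a1 and Col15a1, and the fall over time was therefore not shown to differ between the lungs. Centring on array medians moved the share of higher genes among all calls from 73.8% to 87.1% for left against right at 3 h and from 40.1% to 59.7% for left lungs over time, where 2 members were then called, both lower.

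Of the 53 members, 18 had more than 1 probe set, and 12 had another that passed the filter. For Itga7 the other tested probe set gave larger differences of the same sign, 0.95 ± 0.23, 1.19 ± 0.23, 1.23 ± 0.23 and 1.87 ± 0.23 in left 30 min, left 3 h, right 30 min and right 3 h lungs, all called (adjusted p = 0.0084, 9.1e-04, 0.0022 and 3.6e-05). For Itgb5 it gave -0.52 ± 0.15 in left lungs at 3 h (adjusted p = 0.015). For Col1a1 it gave -0.60 ± 0.21 in left lungs at 3 h (adjusted p = 0.035), and -0.30 ± 0.21 in right lungs, where it did not pass (adjusted p = 0.35). At 30 min this Col1a1 probe set read 2560, 2410 and 2310 in left and 2390, 2460 and 2120 in right lungs. All of these were above its controls (1170 to 2010). The chosen Col1a1 probe set had means of 2640 in left and 3030 in right 30 min lungs against 3320 in control, the opposite direction. For Col1a2 the other probe set was called lower in left lungs at 3 h (-0.64 ± 0.19, adjusted p = 0.012), where the chosen one was not.

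Probe sets of Col5a1, Lamc1 and Col14a1 also disagreed. The other Col5a1 probe set was called higher at 30 min, by 1.04 ± 0.16 (adjusted p = 2.8e-04) in left and 1.01 ± 0.16 (adjusted p = 5.3e-04) in right lungs, and gave 0.37 ± 0.16 in left lungs at 3 h (adjusted p = 0.075), opposite in sign to the call from the chosen one. The other Lamc1 probe set gave -0.04 ± 0.28 in left lungs at 30 min (adjusted p = 0.94) and 0.22 ± 0.28 at 3 h (adjusted p = 0.57). The other Col14a1 probe set gave -0.40 ± 0.16 (adjusted p = 0.083) and -0.21 ± 0.16 (adjusted p = 0.31). Those of Col4a1 and Col18a1 gave 0.31 in left 30 min and -0.29 in left 3 h lungs (adjusted p = 0.18 and 0.22), where the chosen ones were called. The calls of Col5a1, Lamc1 and Col14a1 are therefore statements about 1 probe set, and what part of each transcript the probe sets cover was not tested.

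**Figure D4:**
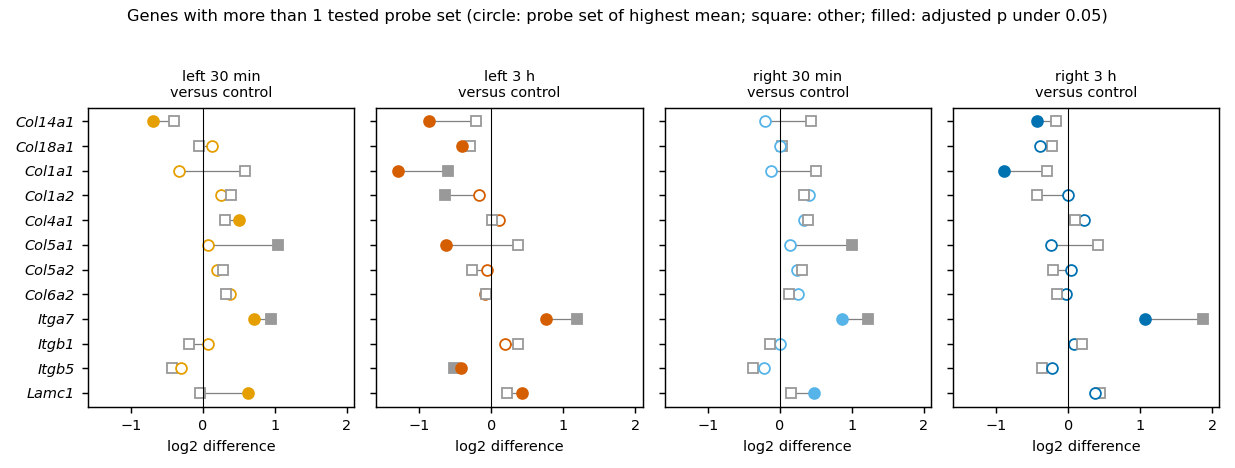
Log2 differences from control of the 12 members with more than 1 tested probe set, the chosen probe set as a circle and the other as a square, filled for an adjusted p under 0.05. Itga7 is filled and positive by both in all 4 panels, while Col5a1 at 3 h in the left lungs is -0.63 by one and 0.37 by the other. The other Itga7 probe set passed the filter only through the operated lungs.

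Genes that work with the families were counted from lists, against the shares of all genes. In left 30 min, left 3 h, right 30 min and right 3 h lungs 8.65%, 13.5%, 5.93% and 7.75% of all genes were called higher. In the same order 9.51%, 24.1%, 6.30% and 12.6% were called lower. Of 15 tested genes of collagen processing, 0 rose and 1 fell in left lungs at 30 min and 3 rose and 1 fell at 3 h, with 1 and 1 in right lungs at 30 min and 1 and 2 at 3 h (medians -0.03, -0.11, 0.02 and 0.03 in the same order). The right-lung counts were near the shares of all genes, and the lower count in left 3 h lungs was below its share. P4ha1, the prolyl hydroxylase subunit whose reaction lets collagen helices hold, set the lungs apart. For P4ha1, controls lay between 714 and 980 (median 781). P4ha1 in left lungs stood at 610, 489 and 632 after 30 min and 1650, 1300 and 1330 after 3 h. Right-lung P4ha1 was 543, 561 and 625 after 30 min and 427, 545 and 533 after 3 h. All left 3 h arrays were above every control and all other operated lungs were below every control. Its differences were -0.47 ± 0.13 (adjusted p = 0.014), 0.80 ± 0.13 (adjusted p = 1.5e-04), -0.46 ± 0.13 (adjusted p = 0.022) and -0.66 ± 0.13 (adjusted p = 0.0016) in left 30 min, left 3 h, right 30 min and right 3 h lungs. At 3 h left exceeded right by 1.46 ± 0.14 (adjusted p = 1.6e-05), left 3 h exceeded left 30 min by 1.27 ± 0.14 (adjusted p = 1.1e-04), and the change of the left-right difference was 1.46 ± 0.20 (adjusted p = 0.0021), each kept without any 1 array. The left 30 min call was lost without left 30 min replicate 2 (-0.36, adjusted p = 0.1) and the right 30 min call without right 30 min replicate 1 or 2 (adjusted p from 0.07 to 0.092), and with median centring both were lost (adjusted p = 0.07 and 0.063).

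Lox, which cross-links collagen and elastin, rose in both lungs at 3 h. Lox signal ran from 1160 to 1770 in the 6 controls (median 1260). In left lungs Lox was 1090, 2180 and 1840 after 30 min of reperfusion and 2700, 2680 and 2050 after 3 h. For Lox the right lungs gave 1780, 2140 and 1260 after 30 min and then, after 3 h, 2680, 2200 and 3320. Every 3 h array was above every control, as were 2 of 3 arrays in each 30 min group. The differences at 3 h were 0.86 ± 0.21 (adjusted p = 0.0041) in left and 1.0 ± 0.21 (adjusted p = 0.0031) in right lungs. Plod2, a lysyl hydroxylase of collagen, rose in left lungs at 3 h by 0.69 ± 0.17 (adjusted p = 0.0057), a call lost without left 3 h replicate 1 (0.42, adjusted p = 0.069).

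Of 16 other matrix glycoproteins tested, 0 passed by limma in either 30 min comparison (1 in each at an unadjusted p under 0.05), 2 rose and 4 fell in left lungs at 3 h, and 3 rose and 1 fell in right lungs at 3 h. Their medians were 0.14 and 0.09 in left and right lungs at 30 min and -0.14 and -0.08 at 3 h. Both left 3 h counts were near the shares of all genes, 13.5% higher and 24.1% lower. The heparan sulfate proteoglycans of the basement membrane, Agrn and Hspg2, fell in left lungs at 3 h, with differences of -0.89 ± 0.17 (adjusted p = 7.8e-04) and -0.70 ± 0.17 (adjusted p = 0.0047). Left-lung signals of Agrn were 1910, 1670 and 1910 after 30 min and 716, 1000 and 1330 after 3 h. Controls of Agrn spanned 1490 to 2180 (median 1800). In Agrn the right-lung arrays read 1390, 1560 and 1900 after 30 min and 1380, 1010 and 1140 after 3 h. All left and right 3 h Agrn arrays were below every control. From 30 min to 3 h in the left lungs Agrn changed by -0.87 ± 0.19 (adjusted p = 0.027) and Hspg2 by -1.0 ± 0.20 (adjusted p = 0.015), and both were lost without left 3 h replicate 1 or 2 or left 30 min replicate 1 or 3 (adjusted p from 0.058 to 0.13). Both were also lost with the actin ratio as a covariate (-0.77 and -0.98, adjusted p = 0.2 and 0.11) and with only the groups compared (0.15 and 0.14). Without the 3 arrays of actin ratio above 2, which leaves 1 left 30 min lung, they differed by -0.75 and -0.86. In right lungs at 3 h Agrn changed by -0.65 ± 0.17 (adjusted p = 0.012), lost without right 3 h replicate 2 (-0.54, adjusted p = 0.064).

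Vtn, the plasma and matrix ligand of RGD-binding integrins, was 252, 238 and 209 in the left 3 h lungs, all below every control (493 to 879). The difference was -1.37 ± 0.23 (adjusted p = 2.9e-04), and left minus right at 3 h was -1.12 ± 0.27 (adjusted p = 0.035), a call lost without any 1 of the left 3 h arrays or right 3 h replicate 1 or 2 (adjusted p from 0.059 to 0.15). Fgg, the fibrinogen gamma chain, rose in right lungs at 3 h by 1.39 ± 0.29 (adjusted p = 0.0028). Of 6 small proteoglycans tested, 3, 2, 1 and 2 fell in left 30 min, left 3 h, right 30 min and right 3 h lungs, with medians of -0.48, -0.32, -0.25 and 0.08. None was called higher by limma (2 were at an unadjusted p under 0.05, both in right lungs at 3 h). Fmod, which binds collagen fibrils, was among them each time, with differences of -0.87 ± 0.19, -0.62 ± 0.19, -0.78 ± 0.19 and -0.62 ± 0.19. The Fmod calls were lost without left 3 h replicate 1 or 2, right 30 min replicate 2, and control replicate 2 or right 3 h replicate 1 or 2, each in its own comparison (adjusted p from 0.051 to 0.11).

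Of 10 elastic fibre genes tested, 2 fell at 3 h in each lung (medians -0.20 in left and -0.19 in right) and none passed by limma at 30 min, where 3 in left and 0 in right lungs had an unadjusted p under 0.05. Of all genes 24.1% fell in left and 12.6% in right lungs at 3 h, so the left-lung count was not above that share. Of 26 tested genes of the integrin adhesion complex, 4 rose and 1 fell in left 30 min, 4 and 2 in left 3 h, 3 and 1 in right 30 min and 1 and 2 in right 3 h lungs, with medians of 0.10, 0.03, 0.12 and -0.06. The lower counts were below the shares of all genes (9.51%, 24.1%, 6.30% and 12.6%). The higher count in left 3 h lungs was near its share of 13.5%. Actn4, an actin cross-linker of adhesions, exceeded the highest control in each of the 12 operated lungs. For Actn4, controls lay between 593 and 933 (median 754). Actn4 in left lungs stood at 1650, 2030 and 1830 after 30 min and 1340, 1870 and 2000 after 3 h. Right-lung Actn4 was 2270, 2060 and 1620 after 30 min and 1910, 1600 and 2130 after 3 h. Its differences were 1.27 ± 0.17, 1.17 ± 0.17, 1.37 ± 0.17 and 1.30 ± 0.17 (adjusted p from 6.0e-05 to 8.3e-05). Bcar1 signal ran from 356 to 511 in the 6 controls (median 467). In left lungs Bcar1 was 690, 1130 and 819 after 30 min of reperfusion and 1020, 712 and 992 after 3 h. For Bcar1 the right lungs gave 560, 697 and 774 after 30 min and then, after 3 h, 533, 444 and 470. Bcar1, the adhesion scaffold p130Cas, was above every control in all left-lung and right 30 min arrays, and right 3 h lungs overlapped the controls. It rose by 0.94 ± 0.16 (adjusted p = 7.8e-04) in left 30 min, 1.0 ± 0.16 (adjusted p = 2.3e-04) in left 3 h and 0.60 ± 0.16 (adjusted p = 0.023) in right 30 min lungs, and left exceeded right at 3 h by 0.86 ± 0.19 (adjusted p = 0.025). The left-right call was lost without left 3 h replicate 1 or 3 or right 3 h replicate 1 or 2 (adjusted p from 0.053 to 0.14), and the right 30 min call without right 30 min replicate 2 or 3 (0.074 and 0.099).

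Tns3, a tensin that links beta 1 tails to actin, fell in every operated group, with differences of -0.61 ± 0.14, -0.95 ± 0.14, -0.49 ± 0.14 and -0.85 ± 0.14 in left 30 min, left 3 h, right 30 min and right 3 h lungs, the third of these lost without control replicate 1 or 5 or right 30 min replicate 1 (adjusted p from 0.052 to 0.21). Of 12 other matrix receptors tested, 2 rose and 1 fell in left 30 min, 2 and 4 in left 3 h, 2 and 0 in right 30 min and 3 and 0 in right 3 h lungs, with medians of 0.07, -0.11, -0.05 and 0.03. At an unadjusted p under 0.05, 1 and 2 of these fell in right 30 min and right 3 h lungs. The left 3 h counts stood beside 13.5% of all genes called higher and 24.1% called lower. Left-lung signals of Sdc4 were 7010, 7210 and 7220 after 30 min and 7580, 6910 and 6410 after 3 h. Controls of Sdc4 spanned 3340 to 3910 (median 3550). In Sdc4 the right-lung arrays read 7330, 5060 and 4870 after 30 min and 6170, 4550 and 9780 after 3 h. Sdc4, the syndecan of adhesions, exceeded the highest control in each of the 12 operated lungs. Its differences from the control mean were 0.99 ± 0.18, 0.95 ± 0.18, 0.65 ± 0.18 and 0.85 ± 0.18 in left 30 min, left 3 h, right 30 min and right 3 h lungs. Plaur, the urokinase receptor that binds vitronectin and integrins and that neutrophils and monocytes also carry, rose by 2.02 ± 0.38, 2.95 ± 0.38, 1.54 ± 0.38 and 1.77 ± 0.38 beside the neutrophil markers given above, whose part was not tested. All 6 Plaur controls were below the filter signal, so it was tested only because of the operated lungs. With no filter its adjusted p ran from 8.6e-05 to 0.025. The right 30 min calls of Sdc4 and Plaur were lost without right 30 min replicate 1 (adjusted p = 0.14 and 0.075), and that of Plaur also without replicate 2 (0.056). Without the 3 arrays of actin ratio above 2 the left 30 min calls of Sdc4 and Tns3 were lost as well (0.052 and 0.06).

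**Figure D5:**
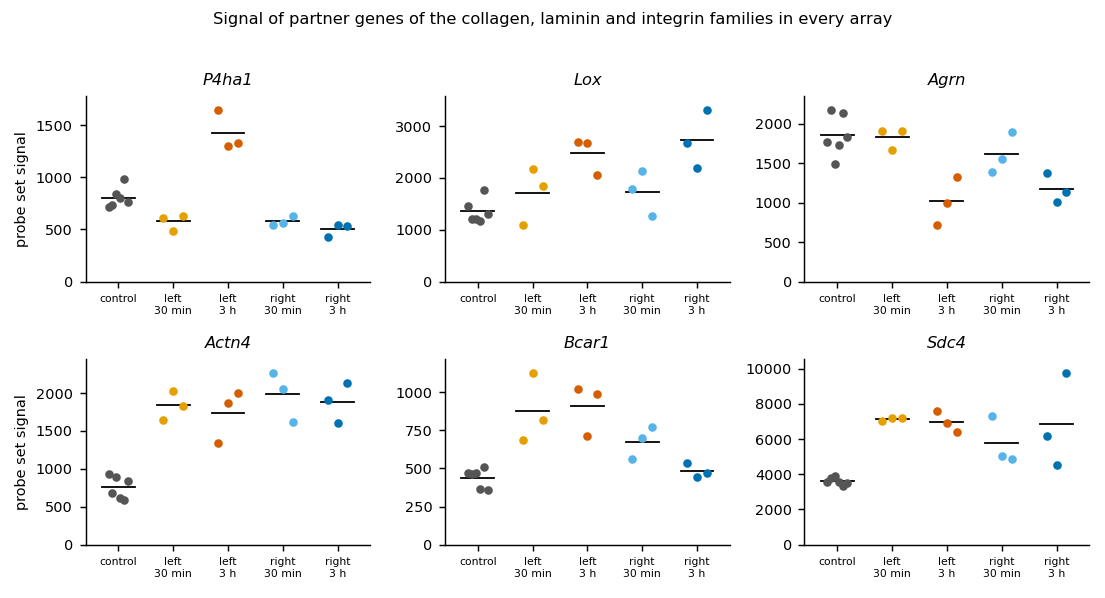
Signal (linear scale, from 0) of 6 genes that act with the families, 1 point per array and a bar at the mean of each of the 5 groups. P4ha1 is above the controls in the left 3 h lungs and below them in the other operated lungs, while Actn4 and Sdc4 are above the controls in all 12 operated lungs.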

How the data were processed

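Total RNA from 18 frozen rat lungs, extracted with Trizol, was measured on 1-colour Affymetrix rat 230A arrays. The deposited table holds 1 signal intensity per probe set and array on a linear scale, made by the authors with MAS5, per the submitters' processing notes (its version is not given in the sources used here). The mean signal after trimming 2% from each end was about 500.1 on each array. GeneSpring 7.2 is also named by the series' text. Such scaling sets a shift common to all genes to 0, and the number of arrays limits the precision.

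Of 15923 probe sets, 57 control probe sets were left out. The platform annotation gave 12783 of the others 1 symbol, 312 several and 2771 none. Signals were analysed as log2(signal + 25) for 10533 probe sets with at least 3 arrays above the 40th percentile of all values. limma 3.58.1 in R 4.3.3 fitted the 5 group means over all 18 arrays, with eBayes and Benjamini-Hochberg adjustment over all tested probe sets in each of 9 comparisons, two-sided, and an adjusted p under 0.05 was a call. Scripts were tested on simulated data. Marker levels were computed with pandas 2.3.3, scipy 1.17.1 and numpy 2.4.6 in Python 3.11.15, which drew the figures through matplotlib 3.10.9.

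The members and lists were chosen with earlier results of these data known. All members could be named, with array values for those called at least once. Of each other list up to 4 passing genes of smallest adjusted p per comparison could be named. Alternatives changed the pseudocount, filter, scaling, variance prior, arrays fitted, RNA quality handling, probe set, pairing and single arrays.

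The labels do not say that a replicate number marks a rat. Deviations of same-numbered left and right lungs correlated at 0.12, 0.31 and 0.15 at 30 min and at -0.17, 0.07 and -0.15 at 3 h. The numbers were therefore not used as pairs. The labels name 6 rats as the source of the controls and do not state how many gave the operated lungs, so p-values measure the spread between these lungs.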

Additional observations from a re-analysis of the deposited data

Results flagged for a closer look

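Each value here is a limma difference on the log2(signal + 25) scale between times or sides within the operated lungs, with a Benjamini-Hochberg adjusted p, that was larger than the spread between lungs. From 30 min to 3 h in the left lungs the members Lama2, Col1a1 and Col15a1 changed by -0.69 (adjusted p = 0.021), -0.97 (adjusted p = 0.035) and -0.76 (adjusted p = 0.046). Each fell in all 3 left lungs at 3 h relative to all 3 at 30 min. Over the same interval Hspg2 changed by -1.0 (adjusted p = 0.015) and Agrn by -0.87 (adjusted p = 0.027), while P4ha1 rose by 1.27 (adjusted p = 1.1e-04). Of the genes in this paragraph only P4ha1 was still called with the actin ratio as a covariate.

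Between the left and right lungs at 3 h P4ha1 differed by 1.46 (adjusted p = 1.6e-05), Bcar1 by 0.86 (adjusted p = 0.025) and Vtn by -1.12 (adjusted p = 0.035). The left-right difference of P4ha1 itself changed by 1.46 (adjusted p = 0.0021) from 30 min to 3 h.

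In 35 sets of 6 control values, for the 20 called members and 15 array measures, no lung stood apart by Dixon's criterion, for which chance gives about 1 in 20. The operated groups of 3 are too small for it.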

How the results depend on the processing

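The 46 member calls were recomputed under up to 30 alternatives each: 1150 values kept direction and call, 199 kept direction only, and 2 changed sign, both with the gene's second probe set (Lamc1, -0.04 in left 30 min, and Col5a1, 0.37 in left 3 h lungs, against control). The cause was not tested. Against control, left 30 min counts of 14 became 9 with quantile normalization, 5 without the arrays of actin ratio above 2 (1 lung then stands for the group, assumed to vary like the others) and 7 with that ratio as a covariate. The left 3 h versus left 30 min count of 3 became 1 with no filter and 0 with only the groups compared, without the high actin arrays or with the covariate. The last 3 use fewer arrays or degrees of freedom, and a fit with no filter tests more probe sets. Leaving out 1 array gave 8 to 15 calls for left 30 min, 9 to 14 for left 3 h, 4 to 8 for right 30 min and 4 to 9 for right 3 h lungs against control, 0 to 1 for left versus right at 3 h and 0 to 4 for left 3 h versus left 30 min, and 0 throughout for left versus right at 30 min, right lungs over time and the change of the left-right difference. With the replicate block, which takes equal numbers as pairs (consensus correlation 0.07), counts were 14, 14, 8 and 7 against control, 3 for left lungs over time and 0 for the others, so the pairing changed no count. With 3 lungs a group and a median SE of 0.18 between operated groups, small differences were not detectable. Signal near background limits Col7a1, Col8a2, Itga6, Itga8 and Itgb4, whose lowest arrays were below the filter.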
